A study of Mus musculus with 12 samples.

Results

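The Schlafen genes of the mouse lie in 1 cluster on chromosome 11. The 7 genes named Slfn1, Slfn2, Slfn3, Slfn4, Slfn5, Slfn8 and Slfn9 were taken by name from the 54532 genes of the deposited count table, and each matched 1 identifier. RNA of primary B lymphocytes, sorted from 3 wild type mice and 3 Tmem173-/- mice, was sequenced after poly-A selection. Tmem173 encodes STING, the sensor of cyclic dinucleotides, and 3'3'-cGAMP is a bacterial cyclic dinucleotide that activates it. The 4 groups, of 3 libraries each, were wild type control, wild type with 3'3'-cGAMP for 12 hours, Tmem173-/- control, and Tmem173-/- with 3'3'-cGAMP for 12 hours. All cells were placed in culture wells after sorting. The sorting gate, the ages and sexes of the mice, and what the control wells received are not given in the sources used here. The labels do not say which libraries share a mouse, so p-values measure the spread between these libraries.

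Schlafen proteins share an N-terminal core that can bind or cleave tRNA in several members. The mouse genes encode short proteins (Slfn1 and Slfn2), intermediate ones (Slfn3 and Slfn4) and long ones (Slfn5, Slfn8 and Slfn9), and the long ones carry a C-terminal region resembling helicases. The family was first described in developing and activated T cells, Slfn2 is known to be needed for the quiescence of resting T cells, and several members are known interferon-stimulated genes.

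The libraries held 26490593 to 31417833 counts and 18556 to 19727 detected genes. Levels are in CPM, the usual scaling of a count to the library total, here after TMM normalization, and are given as mean ± SD over n = 3 libraries. The 5 B cell markers Ms4a1, Cd79a, Cd79b, Pax5 and Cd22 were present in every library. Their sum was lower in wild type cGAMP libraries, at 2398 to 2839 CPM, than in wild type controls, at 3983 to 4796 CPM, and lay at 4156 to 5034 CPM in the Tmem173-/- libraries, and 4 of the 5 were called lower and 1 higher in the wild type response. Mitochondrial transcripts made up 1.19 to 1.32% of the counts in wild type cGAMP and 1.61 to 2.26% elsewhere. The part of these shifts in the results below was not tested. Tmem173 RNA averaged 95.3 ± 5.95 CPM in the wild type controls against 92.7 ± 11.5 CPM in the controls labelled Tmem173-/-. The transcript therefore does not show the genotype in controls. After cGAMP it was at 47.3 ± 2.37 CPM in wild type and at 93.3 ± 9.45 CPM in Tmem173-/- libraries, and each direction between genotypes rests on the labels. Wild type replicate 1 held more transcripts of neutrophils, T cells and NK cells than the remaining wild type libraries. The values are given beside Slfn4, and the part of these cells in any member was not tested.

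In wild type B cells, cGAMP raised 5 of the 7 Schlafen transcripts and lowered 0 of 7. Slfn4, Slfn1, Slfn5, Slfn8 and Slfn3 rose, in falling order of fitted change, while Slfn2 and Slfn9 did not pass the test. A gene was called where the Benjamini-Hochberg adjusted p of edgeR's quasi-likelihood test, over 14473 tested genes, was under 0.05. By this rule 22.4% of all tested genes were higher and 25.4% were lower. The same 5 members were those whose wild type cGAMP libraries all lay above all control libraries, as they did for 26% of all tested genes. The median log2 fold change of the 7 was 1.58, and that of all tested genes was -0.004. Slfn4, part of the 5 and of this median, passed the filter on low counts only through the wild type cGAMP group. Without Slfn4 the median lies between the changes of Slfn3 (0.78) and Slfn8 (1.58). In bulk RNA, more transcript per cell and a larger share of cells that make the transcript cannot be told apart.

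**Figure D1:**
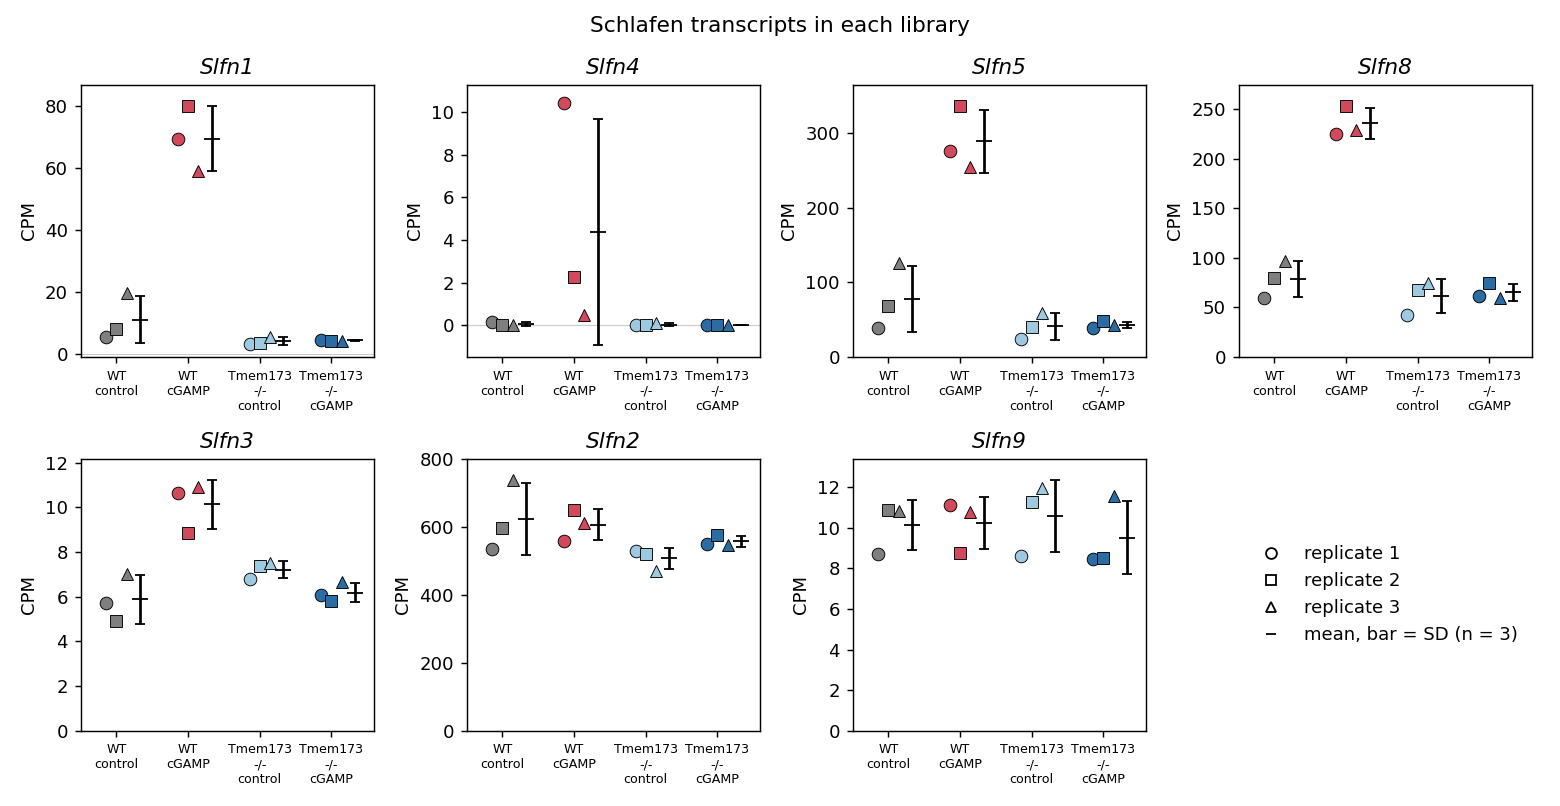
Level of each Schlafen transcript in CPM (vertical axis, linear) in the 12 libraries, by group (horizontal axis). Symbols are libraries, and the horizontal dash with its bar is the mean with SD over 3 libraries, which for Slfn4 reaches below 0. The wild type cGAMP libraries of Slfn1, Slfn4, Slfn5, Slfn8 and Slfn3 sit above their controls, with Slfn4 at 10.4 CPM in replicate 1 and at 0.463 CPM in replicate 3.

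Of the short members, Slfn1 (ENSMUSG00000078763, GRCm38 chr11:83116849-83122670, plus strand) was low in controls and high after cGAMP. The wild type control libraries held 5.34, 8.13 and 19.8 CPM, and the wild type cGAMP libraries 69.4, 80.1 and 58.9 CPM. Control replicate 3 was the highest control, and the groups did not overlap. The mean rose from 11.1 ± 7.66 to 69.4 ± 10.6 CPM, a fitted 6.26-fold change (log2 2.65, SE 0.40, edgeR adjusted p = 0.000451). Without wild type control replicate 3 the log2 fold change of Slfn1 was 3.36.

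Slfn2 (ENSMUSG00000072620, chr11:83065112-83070678, plus strand), the member tied to T cell quiescence, had the highest level of the family in every library, in CPM and per length. Wild type controls had 534, 598 and 740 CPM of it, and treated wild type cells 559, 650 and 611 CPM. The groups overlapped, and the means of 624 ± 105 and 607 ± 45.2 CPM differed by less than their spread. The log2 fold change was -0.04 (edgeR adjusted p = 0.791), with a 95% limma-voom interval of -0.26 to 0.20. Its sign turned with library totals as the scaling, where it was 0.04.

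Of the intermediate members, Slfn3 (ENSMUSG00000018986, chr11:83191330-83215154, plus strand) showed the smallest of the 5 rises. Wild type controls were at 5.70, 4.89 and 7.03 CPM, and wild type cGAMP libraries at 10.6, 8.85 and 10.9 CPM. The libraries of each group lay close together and the groups did not overlap. The mean went from 5.87 ± 1.08 to 10.1 ± 1.11 CPM, 1.72-fold (log2 0.78, SE 0.15, edgeR adjusted p = 0.000568).

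Slfn4 (ENSMUSG00000000204, chr11:83175186-83190216, plus strand), known mainly from myeloid cells such as activated macrophages, was nearly absent outside 1 group. Its raw counts were 5, 1 and 0 in wild type controls, 286, 66 and 13 in wild type cGAMP, 0, 0 and 3 in Tmem173-/- controls, and 0 in each Tmem173-/- cGAMP library. Every wild type cGAMP library exceeded every other library, yet replicate 1 held 78.4% of the group's counts and stood 22.5-fold above replicate 3 in CPM. The summed 365 counts against 6 in controls gave a ratio of 61.0 per library total after TMM scaling. Its 95% counting interval of 27.7 to 167 pools the reads and leaves out the spread between libraries. The unadjusted 95% limma-voom interval of the log2 fold change, which includes that spread, was 0.23 to 10.4. The fitted log2 fold change was 5.86 (SE 1.38, edgeR adjusted p = 0.00714). Slfn4 passed the filter on low counts only through the wild type cGAMP group, so its call is partly set by the filter. All 7 members passed the filter, and of the 6 besides Slfn4, 4 rose.

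The Slfn4 rise was the least certain of the 5. Limma-voom did not call it (limma-voom adjusted p = 0.0795), nor did a fit on the wild type groups alone (edgeR adjusted p = 0.0536), and the adjusted p ranged from 7.59e-25 to 0.0795 over 21 alternatives. Without wild type cGAMP replicate 1 the log2 fold change was 4.19, and without wild type control replicate 1, which held 5 of the 6 control counts, it was 7.63.

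Neutrophil, T cell and NK cell markers were highest in the same library as Slfn4. Monocyte and macrophage markers were not, and dendritic cell markers were higher in all wild type cGAMP libraries than in the other groups. The 6 neutrophil markers (S100a8, S100a9, Ngp, Camp, Ltf and Retnlg) summed to 652, 5 and 11 counts in wild type cGAMP replicates 1 to 3 and to 259, 2 and 0 counts in wild type controls. In Tmem173-/- libraries they summed to 1, 3 and 18 counts in controls and to 1, 0 and 53 counts after cGAMP, where Slfn4 had 0 counts. The 8 T cell markers were at 13.6, 6.90 and 6.85 summed CPM in wild type controls, at 20.3, 2.75 and 2.42 after cGAMP, and at 5.43 to 8.80 in the Tmem173-/- libraries. The 5 NK cell markers were at 0.177 to 0.748 summed CPM in wild type controls, at 2.33, 0.275 and 0 in wild type cGAMP replicates 1 to 3, and at 0.0340 to 0.163 in the Tmem173-/- libraries. The 7 monocyte and macrophage markers lay at 38.7 to 48.2 summed CPM in wild type controls, at 57.3, 57.4 and 35.5 after cGAMP, and at 48.1 to 63.2 in the Tmem173-/- libraries. The 5 dendritic cell markers lay at 14.0 to 18.1 summed CPM in wild type controls, at 36.2 to 43.4 after cGAMP, and at 15.5 to 21.9 in the Tmem173-/- libraries. Within a group, markers at 0 in all 3 libraries were Gzma and Eomes in Tmem173-/- controls, and Gzma, Eomes, Klre1 and Fcgr1 in Tmem173-/- cGAMP. The part of these cells in the Slfn4 rise was not tested. When the control and cGAMP libraries of wild type replicate 1 were left out, the log2 fold change of Slfn4 was 5.96 (edgeR adjusted p = 0.00571). The wild type controls left in it held 1 and 0 counts of Slfn4, against 66 and 13 after cGAMP. The control level is thus near the floor, and the size of this fold is uncertain. In that fit 5 members were called, with Slfn1 at 2.31, Slfn5 at 1.60, Slfn8 at 1.45 and Slfn3 at 0.72.

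Of the long members, Slfn5 (ENSMUSG00000054404, chr11:82951349-82964840, plus strand) had wild type control values of 38.3, 68.8 and 126 CPM, and cGAMP values of 276, 337 and 255 CPM. Control replicate 3 was again the highest control, and the groups did not overlap. The mean rose 3.73-fold from 77.6 ± 44.4 to 289 ± 42.4 CPM (log2 1.90, SE 0.44, edgeR adjusted p = 0.00711), and without control replicate 3 the log2 fold change was 2.43.

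Slfn8 (ENSMUSG00000035208, chr11:83002158-83020810, minus strand) had the smallest adjusted p of the members that rose. Its controls were at 59.8, 79.6 and 96.9 CPM and its wild type cGAMP libraries at 225, 254 and 229 CPM. The lowest treated library, at 225 CPM, stood far above the highest control, at 96.9 CPM. The mean rose 2.99-fold from 78.8 ± 18.6 to 236 ± 15.5 CPM (log2 1.58, SE 0.20, edgeR adjusted p = 4.83e-05).

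Slfn9 (ENSMUSG00000069793, chr11:82978390-82991830, minus strand), the neighbour of Slfn8, had wild type control values of 8.73, 10.9 and 10.8 CPM, and cGAMP values of 11.1, 8.78 and 10.8 CPM. The groups overlapped almost fully. The log2 fold change was 0.01 (edgeR adjusted p = 0.958, 95% limma-voom interval -0.35 to 0.37), and its sign turned without both wild type replicate 1 libraries, where it was -0.15. A change of the size seen for Slfn8 lies outside that interval.

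Promoters were read because the long members moved unequally although they neighbour each other. The windows run from 250 bases before to 50 after a RefSeq transcript start, on the sense strand, build GRCm38.p6, and all 7 members matched, Slfn8 with 2 starts. Both strands were searched for the core of the interferon-stimulated response element, the site bound by the interferon-activated complex ISGF3 (GAAANNGAAA, or TTTCNNTTTC on the other strand). Capitals below mark a match. Slfn5, Slfn8 and Slfn9 are shown as the members with a match, and Slfn1 as a member that rose without one.
Slfn5 promoter, chr11:82951852-82952151, plus strand: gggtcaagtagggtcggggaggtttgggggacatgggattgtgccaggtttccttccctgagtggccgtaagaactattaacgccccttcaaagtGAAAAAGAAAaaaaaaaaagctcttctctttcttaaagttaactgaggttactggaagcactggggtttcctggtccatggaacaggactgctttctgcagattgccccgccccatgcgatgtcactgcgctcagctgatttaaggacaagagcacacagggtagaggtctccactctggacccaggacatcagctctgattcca
Slfn8 promoter, chr11:83020761-83021060, minus strand: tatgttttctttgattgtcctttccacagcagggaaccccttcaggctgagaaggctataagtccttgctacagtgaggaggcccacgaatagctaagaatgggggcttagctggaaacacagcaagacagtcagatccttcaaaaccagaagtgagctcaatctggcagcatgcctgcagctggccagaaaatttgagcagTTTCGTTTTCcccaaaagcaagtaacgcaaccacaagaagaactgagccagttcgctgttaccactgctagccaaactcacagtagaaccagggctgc
Slfn9 promoter, chr11:82991781-82992080, minus strand: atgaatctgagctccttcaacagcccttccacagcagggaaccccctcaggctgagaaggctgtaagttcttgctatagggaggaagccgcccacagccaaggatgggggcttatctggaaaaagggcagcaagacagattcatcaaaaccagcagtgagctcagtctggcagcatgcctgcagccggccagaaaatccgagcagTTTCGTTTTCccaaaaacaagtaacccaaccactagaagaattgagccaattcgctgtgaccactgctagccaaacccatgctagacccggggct
Slfn1 promoter, chr11:83116570-83116869, plus strand: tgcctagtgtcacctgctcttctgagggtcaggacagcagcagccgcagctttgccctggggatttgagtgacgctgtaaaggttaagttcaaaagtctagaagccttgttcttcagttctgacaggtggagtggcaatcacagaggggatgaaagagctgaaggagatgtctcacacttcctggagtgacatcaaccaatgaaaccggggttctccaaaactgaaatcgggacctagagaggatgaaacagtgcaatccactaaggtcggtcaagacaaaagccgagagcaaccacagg

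The match in Slfn5 began 155 bases before the start and those in Slfn8 and Slfn9 began 48 and 45 bases before it. The second Slfn8 window covers the same match, there 136 bases before its start. The Slfn8 and Slfn9 windows held the same 10 letters, TTTCGTTTTC, and, as printed, were 80.8% identical over their alignment (252 identical positions). With the second Slfn8 window the identity to Slfn9 was 47.8%, and no other pair of windows from different members was above 53.4%. The windows of Slfn1, Slfn2, Slfn3 and Slfn4 held no match. Of all 32851 promoter windows of this length, 3.44% held one. Neither the gamma-activated site (TTCNNNGAA, which reads the same on both strands) nor a kappa B site (GGGNNTTTCC, or GGAAANNCCC) was found in a member's window, and 8.30% and 1.63% of all windows held them. Thus Slfn5 and Slfn8 rose with a match and Slfn9, with the letters of Slfn8, did not pass the test, while Slfn1, Slfn3 and Slfn4 rose with none in the window. A match of letters is not evidence of a bound site, and a missing match is not evidence that no site is present. Only exact matches within these windows were counted, so sequences that differ from the core by a letter were passed over. Binding was not measured.

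In Tmem173-/- cells, cGAMP changed none of the 7 members by edgeR, where 0% of the 14473 tested genes were called (203 genes, none of them a member, had an unadjusted p under 0.05, and DESeq2 and limma-voom also called 0 genes, with 216 and 235 at an unadjusted p under 0.05). Slfn1 was at 3.34, 3.56 and 5.55 CPM in Tmem173-/- controls and at 4.65, 4.19 and 4.35 CPM with cGAMP. Slfn5 was at 23.8, 39.7 and 59.5 CPM in controls and at 39.5, 47.6 and 43.1 CPM with cGAMP. Slfn8 was at 42.5, 68.1 and 74.6 CPM in controls and at 61.5, 74.7 and 59.5 CPM with cGAMP. For these 3 genes the treated libraries lay within the range of the controls or overlapped it.

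The intervals of the Tmem173-/- response show what these libraries leave room for. The 95% limma-voom interval of the log2 fold change was -0.99 to 1.25 for Slfn1, -0.86 to 1.23 for Slfn5 and -0.33 to 0.56 for Slfn8. It was -0.56 to 0.12 for Slfn3, -0.09 to 0.36 for Slfn2 and -0.50 to 0.21 for Slfn9. The upper bounds of Slfn1, Slfn3, Slfn5 and Slfn8 all lie below the wild type estimates. For Slfn5 that bound lies inside the wild type limma-voom interval of 1.08 to 3.03, so these intervals do not separate its responses. Slfn2 and Slfn3 were the members whose Tmem173-/- groups did not overlap, as was the case in either direction for 6.64% of all tested genes, and neither was called. Slfn2 went from 530, 521 and 472 CPM to 550, 577 and 548 CPM, and Slfn3 from 6.77, 7.36 and 7.52 CPM to 6.07, 5.83 and 6.66 CPM. Slfn9 was at 8.60, 11.3 and 12.0 CPM and then at 8.45, 8.52 and 11.6 CPM. Slfn4 was at or under 3 counts in each Tmem173-/- group, so no fold is given.

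**Figure D2:**
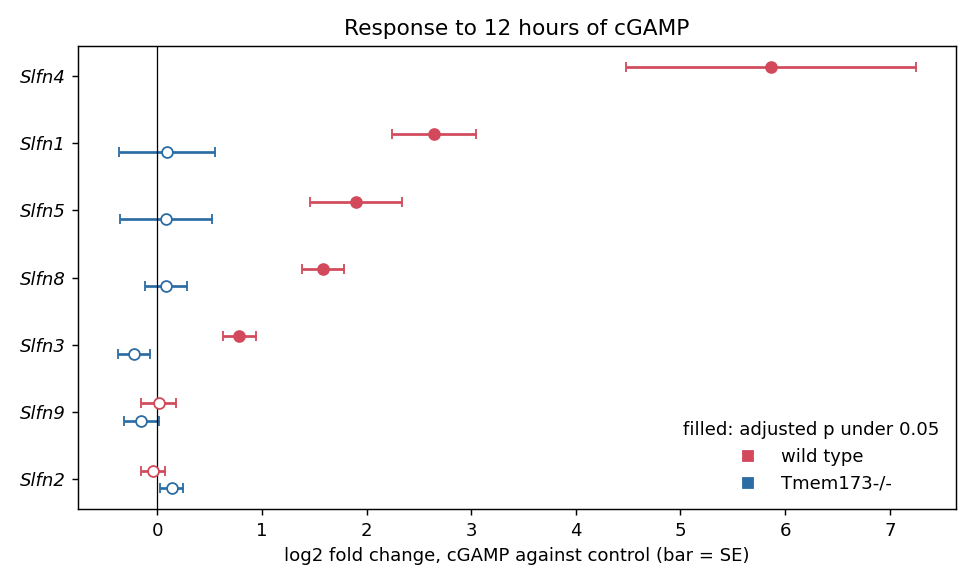
Fitted log2 fold change after cGAMP (horizontal axis, bar = SE) of each Schlafen gene (vertical axis) in wild type and Tmem173-/- cells, filled where the edgeR adjusted p is under 0.05. The wild type points run from -0.04 for Slfn2 to 5.86 for Slfn4, all Tmem173-/- points are open, and Slfn4 has none there because both groups held 3 counts or fewer.

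The difference between the responses of the genotypes was tested as an interaction, wild type minus Tmem173-/-. Of the 7 members, 3 had a larger response in wild type cells, against 14.1% of all tested genes. Slfn8 had a difference of 1.50 on the log2 scale (SE 0.29, edgeR adjusted p = 0.00186). For Slfn3 it was 1.01 (SE 0.22, edgeR adjusted p = 0.00247), and for Slfn1 it was 2.56 (SE 0.61, edgeR adjusted p = 0.0105). Slfn5, with 1.82 (SE 0.62), fell just outside the threshold (edgeR adjusted p = 0.0545) and was called in 7 of 20 alternatives, with adjusted p from 1.96e-32 to 0.129. Without wild type control replicate 3 its difference was 2.34 (edgeR adjusted p = 0.0110), that of Slfn1 was 3.27, and without Tmem173-/- control replicate 1 that of Slfn5 was 2.10 (edgeR adjusted p = 0.0323). Slfn4 did not pass (edgeR adjusted p = 0.184) and passed in 4 of 20 alternatives, one of them the fit that left out replicate 1 of both wild type groups (edgeR adjusted p = 0.0380), over a range of 2.27e-05 to 1. Slfn2 and Slfn9 had differences of -0.18 and 0.17, neither past the threshold.

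Under cGAMP, 5 of the 7 members were lower in Tmem173-/- than in wild type cells, against 23.5% of all tested genes, and they were the 5 that rose in wild type cells. Slfn4 is among them, which passed the low-count filter only through the higher group of this comparison, and of the 6 others 4 were lower. This comparison shares its wild type cGAMP libraries with the wild type response, so it is not separate evidence. Slfn1 was 15.8-fold lower (log2 -3.98, edgeR adjusted p = 4.64e-05) at 4.40 ± 0.233 CPM. Slfn5 was 6.67-fold lower (log2 -2.74, edgeR adjusted p = 0.00108) at 43.4 ± 4.10 CPM, and Slfn8 3.62-fold lower (log2 -1.85, edgeR adjusted p = 1.25e-05) at 65.2 ± 8.27 CPM. Slfn3 was 1.64-fold lower (log2 -0.71, edgeR adjusted p = 0.00115) at 6.18 ± 0.428 CPM. Slfn4, at 0 counts in Tmem173-/- cGAMP, was at least 124-fold higher in wild type, taking 3 counts over the group as the floor (edgeR adjusted p = 0.00342). Without wild type cGAMP replicate 1, the library with high neutrophil markers, 79 counts were left and the bound was 39.8-fold. A fit on these groups alone did not call it (edgeR adjusted p = 0.148, over alternatives from 3.79e-32 to 0.148). Slfn2 (log2 -0.12) and Slfn9 (log2 -0.10) did not pass.

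Between controls, 0 of the 7 members passed, and 0% of all tested genes did (921 genes had an unadjusted edgeR p under 0.05, Slfn1 and Slfn2 among them, DESeq2 called 4 genes, none of them a member, with 954 at an unadjusted p under 0.05, and limma-voom called 0, with 930). Slfn1 was at 4.15 ± 1.22 CPM in Tmem173-/- controls against 11.1 ± 7.66 CPM in wild type controls (log2 -1.42). Slfn5 was at 41.0 ± 17.9 against 77.6 ± 44.4 CPM (log2 -0.92), and the groups of both genes overlapped. Slfn2, at 508 ± 31.5 against 624 ± 105 CPM (log2 -0.30), was the member whose control groups did not overlap, as was the case in either direction for 9.09% of all tested genes, and it was not called.

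Levels were compared between genes on a scale per length, since a longer transcript yields more reads. By the deposited FPKM, Slfn2 held 88.1, 85.0 and 81.9% of the summed level of the 7 genes in wild type controls and 59.2, 59.4 and 62.9% after cGAMP. The shares did not overlap, and the sum of the family went from 428 ± 66.8 to 615 ± 48.7 FPKM, while Slfn2 itself was at 363 ± 43.5 and 372 ± 27.2 FPKM. In Tmem173-/- cells the Slfn2 share was 87.0 ± 4.09% and 87.7 ± 0.595%, and the sum was 353 ± 12.3 and 383 ± 8.73 FPKM.

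After cGAMP in wild type cells the order by FPKM was Slfn2, Slfn5 at 111 ± 16.6, Slfn8 at 85.2 ± 5.67, Slfn1 at 38.0 ± 5.92, Slfn3 at 4.68 ± 0.506, Slfn9 at 2.66 ± 0.330 and Slfn4 at 1.42 ± 1.72. Each neighbour in this order was separated by all libraries, except Slfn9 and Slfn4, which overlapped. The lengths behind the deposited FPKM equal the mean length of a gene's annotated transcripts, such as 2652 bases for Slfn5, whose summed exons span 6326 bases. On CPM per kilobase of summed exons, Slfn8 (57.7 ± 3.79) came before Slfn5 (45.7 ± 6.70), and Slfn5 overlapped Slfn1 (37.2 ± 5.69), so the rank of Slfn5 depends on the length chosen. The Slfn2 share on that scale was 90.4 ± 1.94% and 71.4 ± 1.80% in wild type cells. The family sum on that scale was 416 ± 79.1 in wild type controls and 511 ± 37.9 after cGAMP. There the groups overlapped, with wild type control replicate 3 at 503 and wild type cGAMP replicate 1 at 480. In wild type controls Slfn5 and Slfn8 overlapped on either scale, as did Slfn3 and Slfn9.

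**Figure D3:**
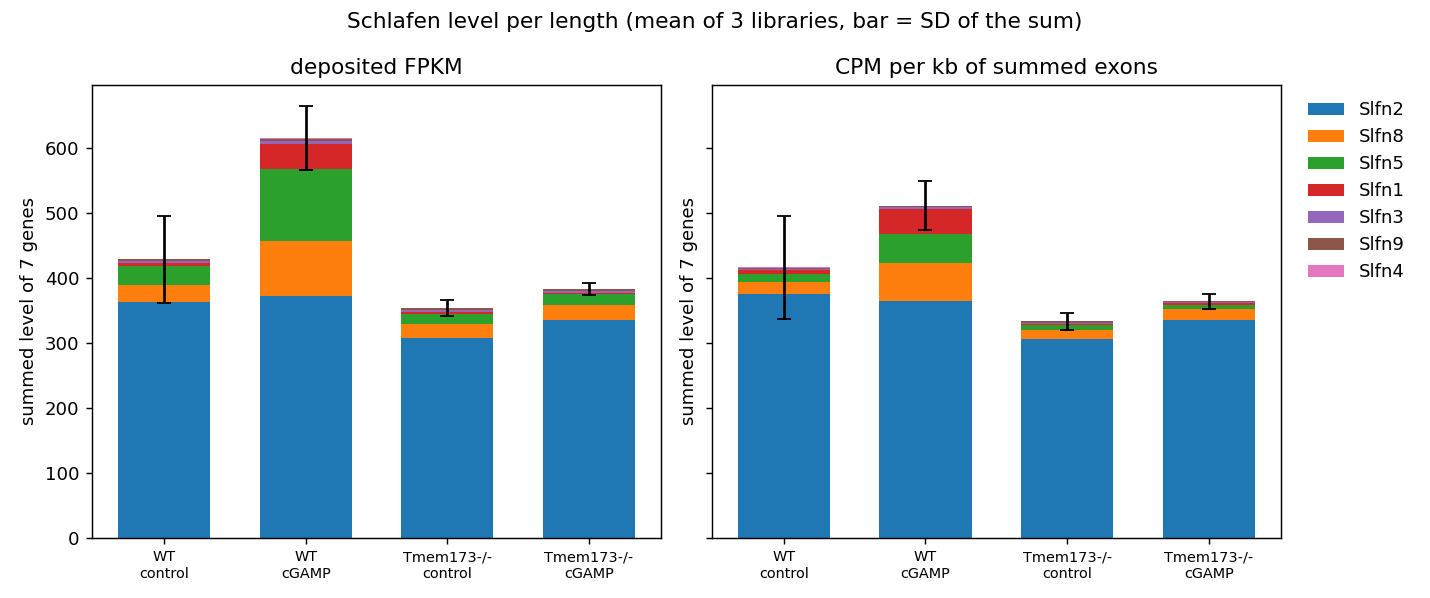
Summed level of the 7 Schlafen genes (vertical axis) in each group, stacked by gene, on deposited FPKM (left) and on CPM per kilobase of summed exons (right). Segments are means of 3 libraries and the bar is the SD of the sum, and the Slfn2 segment stays similar while those of Slfn5, Slfn8 and Slfn1 grow in wild type cells after cGAMP.

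Paralogs in 1 cluster can share reads. Of the distinct 50-base windows of each member's annotated transcripts, 0% in Slfn5 and 0.606% in Slfn1 also occurred in another Schlafen gene. The share was 4.27% in Slfn2, 7.39% in Slfn3, 8.15% in Slfn4, 11.2% in Slfn9 and 14.6% in Slfn8, whose closest relative by this measure was the pseudogene Slfn10-ps (10.1%). How reads with several matches were counted is not given in the sources used here, so values of Slfn8, Slfn9 and Slfn10-ps are less certain than those of Slfn5 and Slfn1.

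Of the 3 related genes outside the 7, Slfn10-ps rose in wild type cells and the others were too low to test. Its wild type control libraries held 3.35, 2.67 and 2.90 CPM, and the cGAMP libraries 11.2, 7.68 and 11.6 CPM (log2 1.77, SE 0.19, edgeR adjusted p = 2.02e-06). The groups did not overlap, and how many of its reads stem from Slfn8 was not tested. Slfn14, a long member known from platelets and red cells, had 7 counts over all 12 libraries, and Slfnl1 had 8.

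Neighbours of the cluster were examined as well. Of 32 other genes reported within 200 kilobases of the outermost members, 14 were tested in wild type cells, and 6 were higher, 1 was lower and 7 were not called, beside 22.4% higher and 25.4% lower among all tested genes. Those higher were Slfn10-ps, the ribosome assembly gene Nle1 (log2 1.15), the pseudogenes Gm11427 (1.03) and Gm11425 (0.87), the small nucleolar RNA Snord7 (1.69) and the DNA ligase gene Lig3 (0.34). Snord7 was low, with 127 counts over the 12 libraries (SE 0.65, edgeR adjusted p = 0.0415). Its mean was 0.212 CPM in wild type controls and 0.696 CPM after cGAMP. Ap2b1, a clathrin adaptor subunit, fell by 0.39 on the log2 scale. Not called were Zfp830, Gm11423, Rffl, Rad51d, Gm20234, AI662270 and AA465934. Along the cluster the uncalled Slfn9 lies between Slfn5 and Slfn8, and the uncalled Slfn2 between Slfn10-ps and Slfn1. Of these neighbours, Gm11427 overlaps AI662270, Snord7 lies in AA465934 and Lig3 overlaps Rffl, so their reads may be shared. Gm20234 overlaps Slfn2 on the opposite strand (log2 0.79, edgeR adjusted p = 0.0603), and since strand use in counting is not given, reads of the overlap cannot be told apart.

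**Figure D4:**
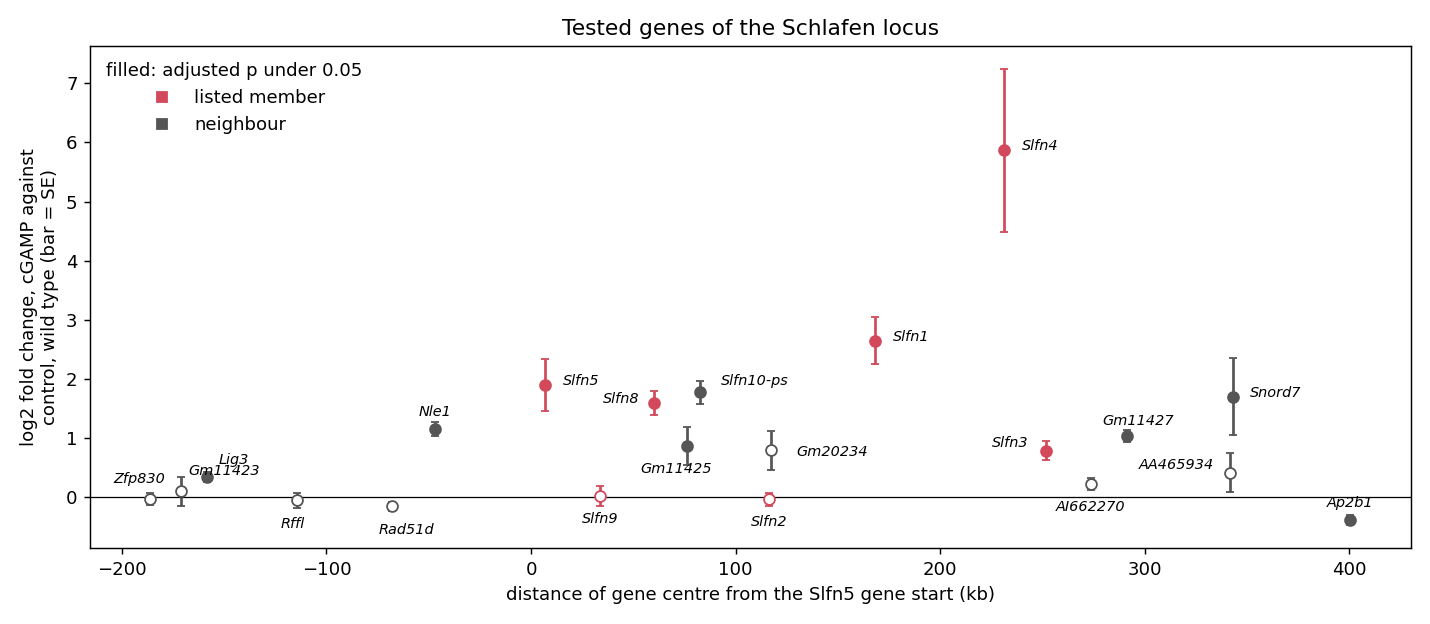
Wild type log2 fold change after cGAMP (vertical axis, bar = SE) against the distance of the gene's centre from the Slfn5 gene start in kilobases (horizontal axis), for Schlafen members and the other tested genes named here, filled where the edgeR adjusted p is under 0.05. Slfn9 and Slfn2 lie near 0 between members that rose, and Nle1 at 1.15 and Ap2b1 at -0.39 are neighbours outside the cluster.

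Genes of the pathways in which Schlafen proteins are placed were counted in wild type cells, to be read beside the 22.4% higher and 25.4% lower among all tested genes, whose median was -0.004. Among 13 antiviral effectors reported here that act on RNA or translation, 12 were higher, 0 lower and 1 not called, with a median log2 fold change of 2.98. The RNA-binding Ifit1 rose by 4.96, and the oligoadenylate synthetase family genes Oasl1, Oasl2 and Oas2 rose by 4.45, 3.91 and 3.65. Samhd1, a nucleotide hydrolase, was at 0.17 and not called.

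Of 6 genes reported here that carry the type I interferon signal to the response element, 2 were higher, 2 lower and 2 not called, and their median was -0.11. The transcription factor genes Stat2 and Irf9 rose by 1.28 and 0.72. The kinase gene Jak1 fell by 0.54 and the receptor gene Ifnar1 fell by 0.53. The fitted changes of Slfn1, Slfn5 and Slfn8 lay between those of Stat2 and Ifit1, and these differences between genes were not tested.

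Of 14 genes of lymphocyte quiescence, the state Slfn2 is known to maintain in T cells, 0 were higher, 9 lower and 5 not called, with a median of -0.74. The antiproliferative genes Tob1 and Btg1 fell by 1.49 and 0.99 on the log2 scale. The transcription factor gene Foxo1 fell by 1.36, and the egress receptor gene S1pr1 fell by 1.14. Slfn2 itself was not among the genes that fell. Library totals as the scaling and DESeq2 each called 1 gene of this list higher.

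Of 10 genes of replication protein A and replication stress, to which a long human family member is linked, 7 were higher, 1 lower and 2 not called, with a median of 0.31. Dtl, a ubiquitin ligase subunit gene, rose by 2.03, the checkpoint kinase gene Chek1 by 2.00, the helicase subunit gene Mcm3 by 0.97 and the checkpoint kinase gene Atr by 0.72, while Rpa1, the large subunit of replication protein A, fell by 0.30. Of 4 tested genes of tRNA cleavage and protection, Elac2, a tRNA processing nuclease gene, rose by 0.76, the tRNA methyltransferase gene Nsun2 rose by 0.65, and the ribonuclease inhibitor gene Rnh1 fell by 0.39. Trdmt1, another tRNA methyltransferase gene, was at -0.30 and not called. Over these lists none of the tested genes was called in Tmem173-/- cells. Unadjusted counts for that comparison are given above for all genes.

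Across the 12 libraries, log2 CPM of Slfn1, Slfn5 and Slfn8 varied together, with Pearson's r of 0.97 to 0.98 between pairs, given as a description because all share the same 4 groups. Among the genes most like Slfn1 were Oas3 (r = 0.997) and Irf7 (0.996). Those most like Slfn5 were Ifi208 (0.998), Ifi206 (0.994) and Hsh2d (0.991), and those most like Slfn8 were Eif2ak2 (0.993), Ifi213 (0.992) and Ddx58 (0.992). For Slfn3 they were Fgfbp3 (0.939), Skil (0.934) and Uspl1 (0.929), and for Slfn4 Stat3 (0.958), Myo10 (0.949) and Stk35 (0.947), of which 1 remained with a prior count of 0.5. For Slfn2 they were Cutc (0.961), Fkbp3 (0.944) and Laptm4a (0.934), and Slfn9 had no gene so close, its nearest being Nelfcd (0.812), Rundc1 (0.797) and Scamp3 (0.793).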

How the data were processed

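Poly-A RNA of 12 mouse B cell libraries was sequenced by the study. The deposited count of each gene and library was made by the authors with fastp, STAR and featureCounts on GRCm38 (also listed as mm10), per the submitters' processing notes, and versions, settings, strand use and the treatment of reads with several matches are not given in the sources used here. The deposited FPKM values divide these counts by the library total and by a length that equals the mean transcript length in GENCODE mouse release M21, found from the values. Counts were fitted in R 4.3.3 with edgeR 4.0.16 (filterByExpr, TMM, robust quasi-likelihood, a mean per group over all 12 libraries), and two-sided p-values were adjusted by Benjamini-Hochberg over 14473 genes separately for the 5 contrasts (threshold 0.05). Each SE is the size of the log2 fold change over the square root of its F statistic. Alternatives used DESeq2 1.42.0, limma 3.58.1 (voom, and trend on log2(FPKM + 1)), other scalings, no filter, the replicate number as a block, the groups compared alone, and libraries left out. The code of the fit was checked on simulated counts with the same dispersion for every gene. That setting is simpler than these data, so the check does not bear on the calls made here. Counting intervals and floors cover counting error only and leave out the spread between libraries, and PCR reads are not independent molecules. Members were all named. List genes named were up to 4 with the largest change past the threshold and those moving against the majority, and likeness used the 3 highest correlations of log2 CPM (prior count 2) among named genes. The members and lists were chosen with earlier results of these data known. A few genes of the marker, pathway and neighbour lists are not reported here, and the counts and medians of those lists leave them out. Promoter sequences come from RefSeq (GRCm38.p6).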

Additional observations from a re-analysis of the deposited data

Results flagged for a closer look

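For 3 Schlafen genes the response to cGAMP differed between the genotypes in a direct test of the difference, wild type minus Tmem173-/-. Slfn1, a short member, had a difference of 2.56 on the log2 scale, Slfn3, an intermediate member, one of 1.01, and Slfn8, a long member with paralogs nearby, one of 1.50. Each of the 3 was called in all 20 alternatives run for this comparison.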

How the results depend on the processing

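In all 21 alternatives 0 members were called in the Tmem173-/- response. In the wild type response and between genotypes under cGAMP 5 members were called, except 4 where Slfn4 was lost, in the wild type response with limma-voom and in both comparisons when only the groups compared were fitted. For the interaction, 5 members were called with no filter on low counts, with the replicate block and with DESeq2, Slfn4 and Slfn5 being added, and leaving out 1 library gave 3 to 4. Between controls, 2 members were called with no filter, Slfn1 (-1.42) and Slfn5 (-0.91), both lower in Tmem173-/-. In that fit the edgeR adjusted p of Slfn1 was 1.6e-20 although its control groups overlapped. The lowest adjusted p of each range given above for Slfn4 and Slfn5 also came from the fit with no filter. Its calls and p-values therefore carry little weight. Values that changed sign were all uncalled. Slfn2 in the wild type response was 0.036 with library totals and 0.040 on log2(FPKM + 1). Without both wild type replicate 1 libraries Slfn9 was -0.15 in the wild type response and -0.034 between controls, where Slfn4 was 0.82. With 1 library left out, the wild type response ranged from -0.15 to 0.094 for Slfn2 and from -0.089 to 0.11 for Slfn9. The Tmem173-/- response ranged from -0.044 to 0.35 for Slfn1, -0.19 to 0.45 for Slfn5 and -0.13 to 0.24 for Slfn8. Between controls, Slfn9 ranged from -0.034 to 0.20 and Slfn4 from -4.11 to 0.82. The causes were not tested. A fit of only the groups compared could not be made for the interaction, which needs all 4 groups.

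The replicate numbers of the labels are not stated to pair the libraries. Correlations of same-numbered deviations were 0.30, 0.22 and 0.08 in wild type and 0.29, 0.10 and 0.17 in Tmem173-/-, and each library correlated best with its own number, which is a hint from the data and not from the design. With the replicate block Slfn5 (edgeR adjusted p = 0.0285) and Slfn4 (edgeR adjusted p = 0.0421) passed in the interaction. Depth limits Slfn4 most, whose group totals were 365, 6, 3 and 0 counts. With 3 libraries a group, an uncalled difference is not shown to be absent.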
